A study of Mus musculus with 8 samples.

Results

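The Cyp2b subfamily of cytochrome P450 genes was followed on 8 Affymetrix mouse arrays, each hybridised with RNA from the snap-frozen liver of a different male mouse at 6 weeks of age. Its 5 genes, Cyp2b9, Cyp2b10, Cyp2b13, Cyp2b19 and Cyp2b23, were chosen by their symbols among 19560 measured genes. They were taken up with group differences on these arrays already known, that of Cyp2b9 among them, so their differences are given as a description, with no test. All 5 were measured, by 37 of the 206316 probe sets (small groups of array probes, about the size of an exon) that the platform annotation ties to a single gene. No probe set was shared between members. All 8 mice lacked the kinase TAK1 in liver parenchymal cells (LPC), the hepatocytes and related epithelial cells of the organ. In 4 of them, labelled Tak1/Caspase8 LPC double knockout and named Tak1/Casp8 here, LPC also lacked caspase 8, the protease by which death receptors start apoptosis. The other 4, labelled Tak1 LPC-KO/Rip3-/- and named Tak1/Rip3 here, carried a knockout of Rip3, a kinase of the necroptosis pathway. The comparison was made to find genes that apoptotic and necrotic signalling regulate differently. The promoter that drives Cre in LPC is not given in the labels. Differences are those of Tak1/Casp8 relative to Tak1/Rip3 (the former minus the latter), and with no TAK1-intact liver analysed here, lower in one group cannot be told from higher in the other.

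Values are log2 intensities normalised by RMA, so a difference of 1 is a factor of 2, and a gene value is the median over its probe sets on an array. The 8 array medians lay between 8.06 and 8.16. Casp8 differed by -1.31 ± 0.11 (SE) and Ripk3, the Rip3 gene, by 0.98 ± 0.17, each lower in the group labelled as lacking it and with groups that did not overlap; where their probes lie relative to the deleted exons was not used here. With 4 arrays in each group, their number sets the precision. In whole liver, fewer cells of a type and less RNA per cell cannot be told apart.

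Cyp2b enzymes are haem proteins of the endoplasmic reticulum that oxidise drugs, steroids and fatty acids with electrons from the reductase POR. In the mouse, Cyp2b10 is the classic gene switched on by phenobarbital through CAR (gene Nr1i3), a nuclear receptor that pairs with RXR and overlaps in its targets with PXR (gene Nr1i2). Cyp2b9 and Cyp2b13 are best known as genes that adult female liver expresses more than male liver, a sex bias set by the rhythm of growth hormone acting through STAT5B. Cyp2b19 is known from the skin, where keratinocytes use it on arachidonic acid.

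The members are close copies of one another to different degrees, also in the untranscribed sequence before the start site. The 250 bases upstream of the RefSeq start sites of 3 members are shown in assembly GRCm38.p6, all on the plus strand, at chr7:26173159-26173408 for Cyp2b9, chr7:26061245-26061494 for Cyp2b13 and chr7:25897408-25897657 for Cyp2b10. Capitals mark AGGTCA, the hexamer that nuclear receptors of this class bind.
Cyp2b9: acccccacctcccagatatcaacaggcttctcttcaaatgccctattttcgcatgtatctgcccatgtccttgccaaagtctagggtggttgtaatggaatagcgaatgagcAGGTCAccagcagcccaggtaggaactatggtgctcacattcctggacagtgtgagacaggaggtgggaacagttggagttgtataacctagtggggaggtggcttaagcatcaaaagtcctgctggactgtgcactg
Cyp2b13: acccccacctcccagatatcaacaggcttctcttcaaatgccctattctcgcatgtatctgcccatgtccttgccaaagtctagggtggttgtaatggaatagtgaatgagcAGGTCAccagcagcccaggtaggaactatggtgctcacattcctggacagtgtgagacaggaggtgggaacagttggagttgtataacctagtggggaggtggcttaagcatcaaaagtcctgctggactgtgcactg
Cyp2b10: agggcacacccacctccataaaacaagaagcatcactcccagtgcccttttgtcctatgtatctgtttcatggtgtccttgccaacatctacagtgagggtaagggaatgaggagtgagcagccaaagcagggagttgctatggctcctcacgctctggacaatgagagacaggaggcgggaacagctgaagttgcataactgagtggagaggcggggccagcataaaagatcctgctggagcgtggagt
Over the full window of 300 bases (250 before and 50 after the start), Cyp2b9 and Cyp2b13 were identical at 298 positions (99.3%) and differed at T48C and C104T, counted from the 5′ end of the window with the Cyp2b9 base given before the number. Cyp2b9 and Cyp2b10 were identical at 223 of 289 aligned bases (77.2%). Among all 10 pairs of members the next closest were Cyp2b10 and Cyp2b23, at 85.1%. AGGTCA, searched on both strands, occurred once in 4 of the 5 windows and not in that of Cyp2b10. Of 32851 promoter windows of the same length, 16.3% held it. The 4 matches lie between the same flanking bases in related windows. They are therefore not independent, and no excess over that share is read. TTCNNNGAA (STAT), CAAAGNNCA (HNF4), TTGNNCAA (C/EBP) and TATAAA occurred in none of the 5, against 8.3%, 6.36%, 6.4% and 13.6% of all windows. A match is only a match of letters, and these windows do not reach enhancers further upstream.

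Cyp2b9 was lower in all 4 Tak1/Casp8 livers than in any Tak1/Rip3 liver. Its gene value was 10.61, 11.13, 11.99 and 11.03 on the Tak1/Rip3 arrays (replicates 1 to 4) and 9.70, 7.82, 6.70 and 8.19 on the Tak1/Casp8 arrays. The groups did not overlap, and Tak1/Casp8 replicate 1 lay nearest to the other group. The means were 8.10 ± 1.24 (SD, n = 4) and 11.19 ± 0.58, a log2 difference of -3.09 ± 0.53 (SE of the fit across all genes), or 8.51-fold. All 7 probe sets had lower means in the Tak1/Casp8 livers, by -4.10 to -2.68, and in all 7 the groups did not overlap. Every one of the 7 was above the lower quartile of probe set levels. Omission of any 1 array left the difference between -3.62 and -2.62. By size it was the 7th most negative among the 19560 genes.

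Cyp2b10, the phenobarbital-responsive member, was also lower in all 4 Tak1/Casp8 livers, by a smaller amount. Its values were 9.75, 9.61, 9.45 and 9.62 in Tak1/Rip3 and 8.83, 8.61, 6.55 and 8.78 in Tak1/Casp8. The Tak1/Rip3 livers were closely alike, 3 Tak1/Casp8 livers lay just under them, and Tak1/Casp8 replicate 3 lay far below. The means were 8.19 ± 1.10 (SD, n = 4) and 9.61 ± 0.12, a log2 difference of -1.41 ± 0.43 (SE), or 2.66-fold. Without Tak1/Casp8 replicate 3 the difference was -0.87, and without any other single array it lay between -1.62 and -1.37. All 9 probe sets were lower, by -1.79 to -0.53, with groups that did not overlap in any of the 9. Its brightest probe set, number 6 in the order of the platform identifiers, had the smallest difference (-0.53 ± 0.13 SE), with 9.28, 9.12, 9.06 and 9.43 in Tak1/Casp8 and 9.66 to 9.90 in Tak1/Rip3. On that probe set and on the dim number 5, Tak1/Casp8 replicate 3 did not stand apart, while on each of the other 7 it lay more than 1 below the next array.

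The other 3 members showed overlapping groups. Of the 5 genes, 2 had Tak1/Casp8 values all below the Tak1/Rip3 values, as had 8.3% of all genes, and at the level of probe sets 19 of 37 did, against 6.57% of all probe sets. Since the members were taken up with this contrast known, nothing is read from these counts. No member probe set had Tak1/Casp8 values all above those of the other group. Cyp2b13, the other gene known for female predominance, had a mean of 4.49 ± 0.33 (SD, n = 4) in Tak1/Casp8 and 4.65 ± 0.33 in Tak1/Rip3. Cyp2b19, the skin gene, had 5.72 ± 0.24 and 6.03 ± 0.16. Cyp2b23 had 6.52 ± 0.08 and 6.43 ± 0.16. The differences of these 3 were -0.16 ± 0.19, -0.32 ± 0.13 and 0.09 ± 0.10 (SE). All 3 rest largely on dim probe sets: 4 of 5 for Cyp2b13, 5 of 8 for Cyp2b19 and 4 of 8 for Cyp2b23 lay under the lower quartile of level, against 0 of 7 for Cyp2b9 and 1 of 9 for Cyp2b10. Of the 3 remaining non-overlapping probe sets, 2 belong to Cyp2b13 (numbers 2 and 3) and 1 to Cyp2b19 (number 6, -1.01 ± 0.24), with 0 in Cyp2b23. The gene values themselves were 4.22 to 5.02 in Tak1/Rip3 and 4.27 to 4.98 in Tak1/Casp8 for Cyp2b13, 5.83 to 6.21 and 5.47 to 5.93 for Cyp2b19, and 6.29 to 6.66 and 6.42 to 6.59 for Cyp2b23.

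**Figure D1:**
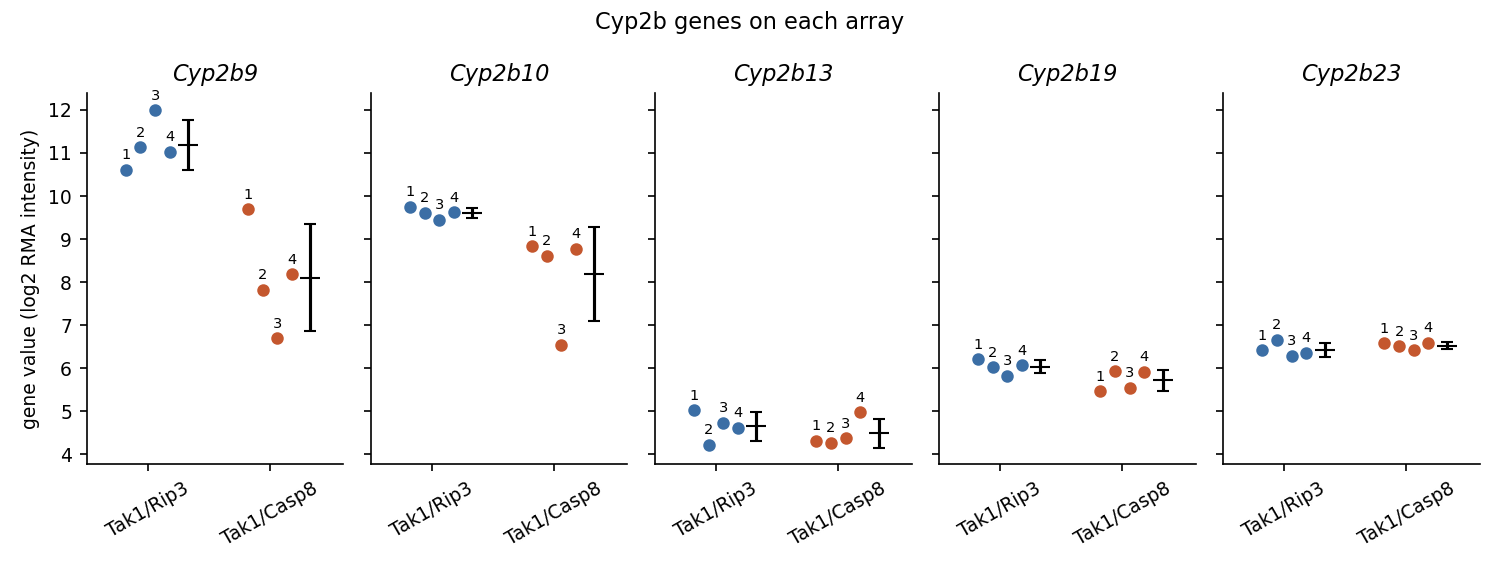
Gene value (log2 RMA intensity, y axis) of each Cyp2b gene on the 4 Tak1/Rip3 arrays (blue) and 4 Tak1/Casp8 arrays (orange), numbered by replicate, with the group mean and SD as black bars. Cyp2b9 and Cyp2b10 are the 2 genes whose groups do not overlap, and Tak1/Casp8 replicate 3 has the lowest value of both, 6.70 and 6.55.

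A single probe set in each of Cyp2b23 and Cyp2b13 departed from the rest of its gene. Probe set 2 of Cyp2b23, its brightest, read 9.85, 10.55, 11.72 and 10.76 in Tak1/Rip3 and 9.99, 7.46, 7.28 and 7.50 in Tak1/Casp8. It was high in all of the one group, but Tak1/Casp8 replicate 1 lay inside that group's range, so the groups overlapped. Its difference was -2.66 ± 0.63 (SE), while the other 7 probe sets of the gene lay between -0.42 and 0.73. Probe set 3 of Cyp2b13, also the brightest of its gene, read 7.99, 8.11, 9.67 and 8.69 against 7.81, 6.98, 6.74 and 7.80. There the groups did not overlap, and the difference was -1.28 ± 0.41 (SE) against -0.53 to 0.09 for the other 4. On both probe sets Tak1/Rip3 replicate 3 was the highest of the 8 arrays and Tak1/Casp8 replicate 3 the lowest, as in the gene value of Cyp2b9. After each was set to its own mean over the arrays, probe set 2 of Cyp2b23 lay a root mean square distance of 0.442 (log2 units) from the Cyp2b9 profile. The other 7 lay 1.56 to 2.02 away, and the 7 probe sets of Cyp2b9 itself 0.163 to 0.955. Probe set 3 of Cyp2b13 lay 1.06 from Cyp2b9, outside the range of the Cyp2b9 probe sets, and was nearer to the Cyp2b10 profile, at 0.715. This distance also depends on span, which was 2.92 for this probe set, 5.3 for the Cyp2b9 gene value and 3.2 for that of Cyp2b10. Its highest array, Tak1/Rip3 replicate 3, was the lowest Tak1/Rip3 array for the Cyp2b10 gene value (9.45). A nearer distance is therefore not a more alike order of arrays. Whether either probe set also picks up RNA of another member was not tested, since probe sequences were not used here.

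**Figure D2:**
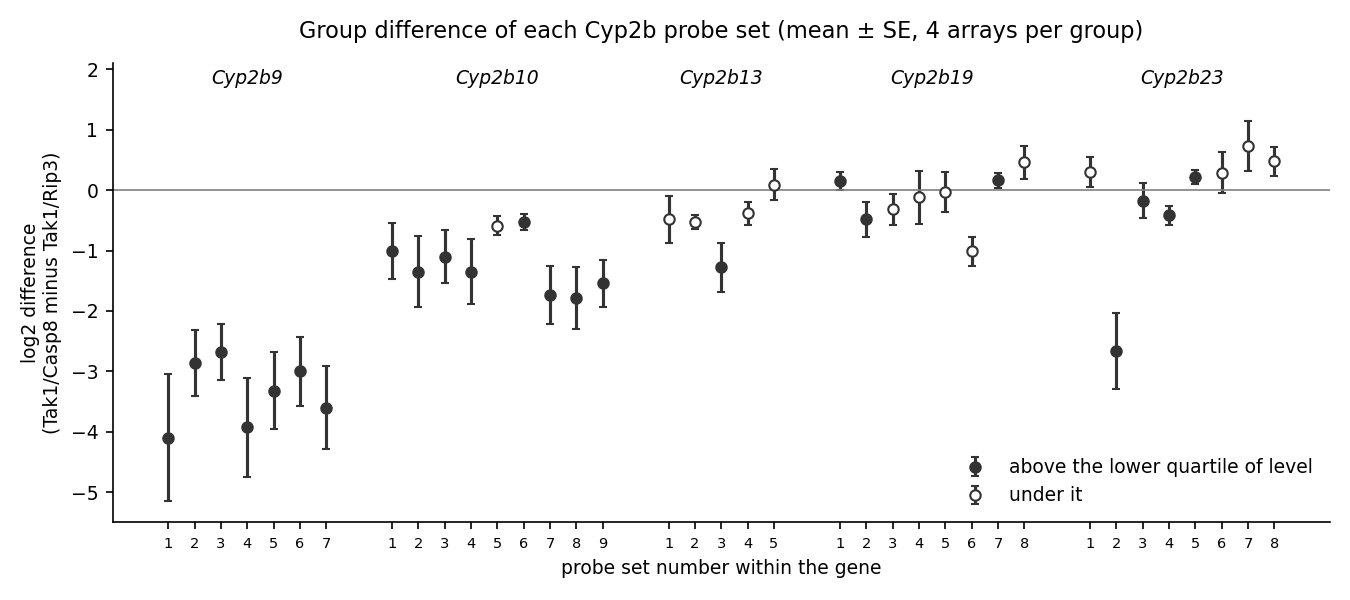
Log2 difference (Tak1/Casp8 minus Tak1/Rip3, y axis) of each of the 37 Cyp2b probe sets, numbered within its gene (x axis), with SE bars from the fit across all probe sets and 4 arrays per group. Filled points lie above the lower quartile of level and open points under it. The 7 of Cyp2b9 and 9 of Cyp2b10 are all negative, and probe set 2 of Cyp2b23 (-2.66) lies apart from the other 7 of its gene.

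Within the groups, Cyp2b9 and Cyp2b10 did not follow the same arrays throughout. In Tak1/Rip3, all 7 Cyp2b9 probe sets were highest in replicate 3, whereas 0 of 9 Cyp2b10 probe sets were, and the Cyp2b10 gene value was lowest there. In Tak1/Casp8, all 7 Cyp2b9 probe sets were highest in replicate 1, which lay 1.51 above the next array, and 7 of 9 Cyp2b10 probe sets were highest in replicate 4. Tak1/Casp8 replicate 3 was lowest for 5 of 7 and 8 of 9. For Cyp2b10 that array lay 2.06 below the next Tak1/Casp8 array, and 2 of the 19560 genes had a larger gap of this kind. For Cyp2b9 the same gap was 1.12, with 18 genes above it.

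**Figure D3:**
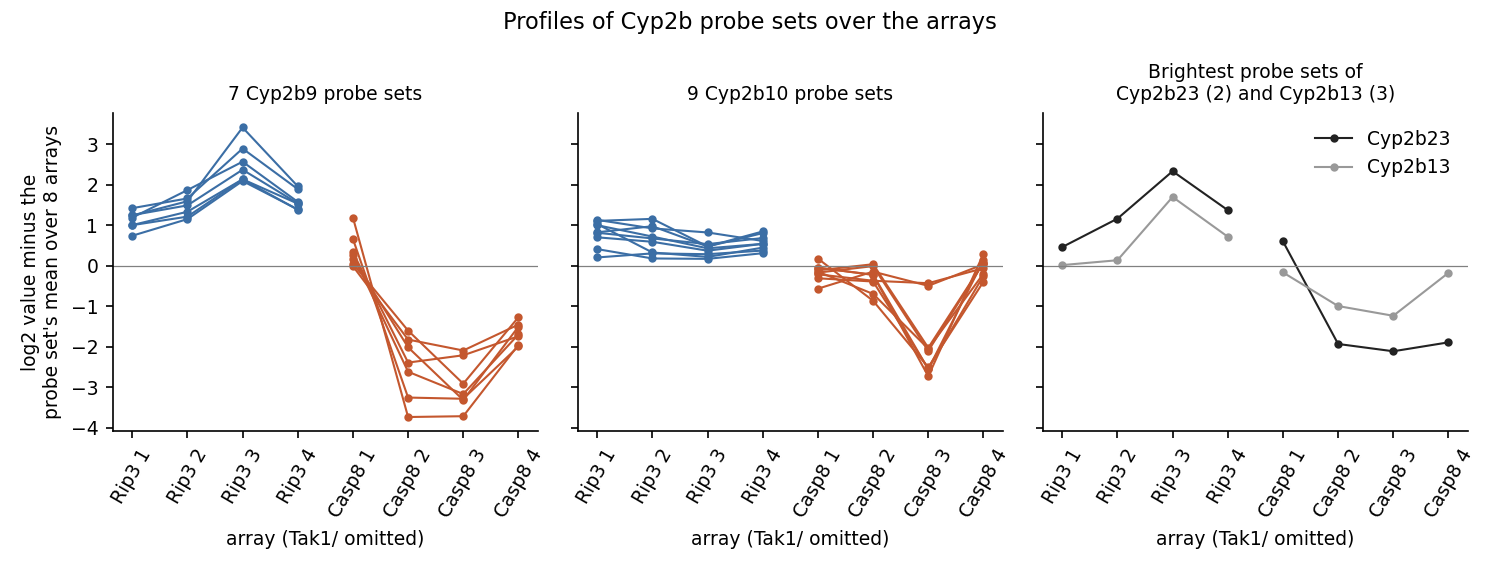
Value of each probe set minus its own mean over the 8 arrays (log2 units, y axis) by array (x axis), for Cyp2b9 and Cyp2b10 (Tak1/Rip3 blue, Tak1/Casp8 orange) and for the brightest probe sets of Cyp2b23 (black) and Cyp2b13 (grey). Lines only join the points of a probe set within a group. In Cyp2b9 the highest point is Tak1/Rip3 replicate 3 throughout, and in Cyp2b10 the low point is Tak1/Casp8 replicate 3 in 8 of 9.

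The Cyp2b genes lie in a cluster of Cyp2 genes on chromosome 7, where 1 of 6 neighbours measured singly passed the test. In the RefSeq order the protein-coding genes run Cyp2s1, Cyp2b10, Cyp2b13, Cyp2b9, Cyp2a4, Cyp2b23, Cyp2b19, Cyp2g1, Cyp2a5, Cyp2a22, Cyp2a12, Cyp2f2 and Cyp2t4. Cyp2a22 was lower in the Tak1/Casp8 livers, with 10.41, 10.38, 10.51 and 10.81 in Tak1/Rip3 against 9.40, 8.45, 6.86 and 9.25. The groups did not overlap, and replicate 3 was again the lowest Tak1/Casp8 array. Its log2 difference was -2.03 ± 0.46 (SE) over 3 probe sets, with a limma adjusted p = 0.0254. It no longer passed when Tak1/Casp8 replicate 2 or any Tak1/Rip3 array but replicate 2 was omitted (limma adjusted p = 0.0594 to 0.0767), and the brightest probe set alone gave -0.96. Cyp2a genes are close copies of one another, so its value is uncertain. The other 5 neighbours measured singly did not pass, at -0.01 to 0.19. Among them were Cyp2f2, known for activating naphthalene in lung and liver (-0.01 ± 0.21), and Cyp2g1, known from the olfactory lining (0.19 ± 0.15). Cyp2a4 and Cyp2a5, a steroid and a coumarin hydroxylase, share all 9 of their probe sets, whose median differed by 0.06 (12.27 ± 0.66 SD against 12.21 ± 0.43), with no test. Counts below can be read against the 6.69% of all genes (1308 of 19560, of which 516 higher and 792 lower) that passed at an adjusted p under 0.05 in limma, at a median difference of 0.01.

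**Figure D4:**
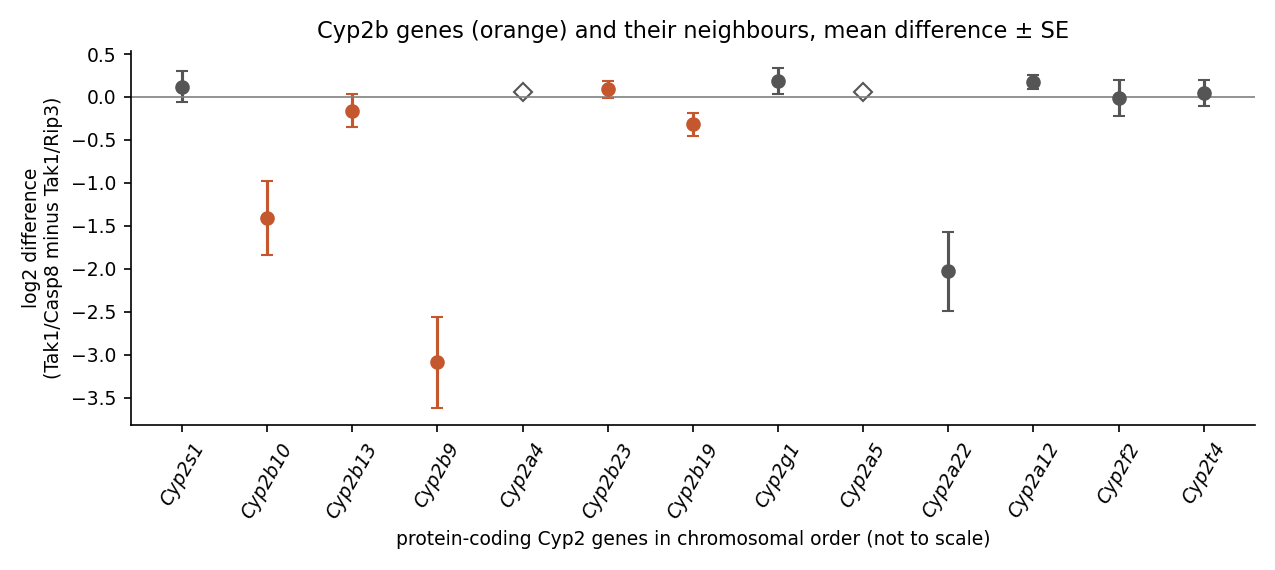
Log2 difference (Tak1/Casp8 minus Tak1/Rip3, y axis) with SE bars for the protein-coding Cyp2 genes of the cluster in chromosomal order (x axis, not to scale), 4 arrays per group. Cyp2b genes are orange and open diamonds give the shared value of Cyp2a4 and Cyp2a5, which has no SE. Cyp2b9 (-3.09), Cyp2a22 (-2.03) and Cyp2b10 (-1.41) lie low between neighbours near 0.

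Among the 53 measured P450 genes of families 1 to 3, Cyp2b9 had the most negative difference and Cyp2b10 the 5th. Between them lay Cyp3a16 (-2.18), Cyp2c55 (-2.10) and Cyp2a22. Of the 48 genes other than Cyp2b, 5 were higher and 4 lower by the test, with a median of 0.00.

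Over all genes, the profile nearest to Cyp2b9 was that of its neighbour Cyp2a22. The measure was the root mean square difference over the 8 arrays after each gene had been set to its own mean. It includes the group difference itself, so near genes are also genes with a like difference, and no test is given. Cyp2a22 lay 0.737 from Cyp2b9. It was followed by Raet1e, which encodes an NKG2D ligand (0.762), the protease inhibitor Serpina3k (0.772) and the mitotic cyclin Ccnb2 (0.781). Their differences were -2.36, -3.27 and -2.22. Cyp2b10 ranked 28th among the 19559 other genes by closeness to Cyp2b9, at 1.05. In the other direction, at the same distance, Cyp2b9 ranked only 14487th by closeness to Cyp2b10. The measure depends on how far each gene spans, so the rank of 28 does not make the 2 genes close partners. The profile of Cyp2b10 was nearest to Ckap2, a spindle protein (0.381), Pclaf, a partner of the replication clamp PCNA (0.390), the spindle protein Nusap1 (0.393) and Shcbp1 (0.394). All 4 were lowest in Tak1/Casp8 replicate 3, for example Ckap2 with 6.80, 7.26, 5.86 and 7.29 on the Tak1/Casp8 arrays against 7.87 to 8.56 in Tak1/Rip3. In all 4 that array lay less far below the next Tak1/Casp8 array than in Cyp2b10, where the gap was 2.06.

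The receptors that act on Cyp2b genes were not among the genes that passed. CAR (Nr1i3) read 10.36, 10.53, 10.85 and 10.44 in Tak1/Rip3 and 10.34, 10.10, 9.88 and 11.03 in Tak1/Casp8. These groups overlapped, at -0.20 ± 0.22 (SE) and a limma adjusted p = 0.655, and Tak1/Casp8 replicate 3, the array with the lowest Cyp2b10, was also the lowest for CAR. CAR was highest of the 8 arrays in Tak1/Casp8 replicate 4. PXR (Nr1i2) differed by 0.17 ± 0.12, its partner RXR alpha (Rxra) by 0.07 ± 0.09 and Hnf4a, a factor needed for hepatocyte gene expression, by 0.06 ± 0.09. Within Tak1/Casp8, PXR (10.50), Rxra (11.19) and Hnf4a (12.42) were also lowest in replicate 3, by little. Their next Tak1/Casp8 values were 10.65, 11.27 and 12.44, and the lowest Tak1/Rip3 values lay under replicate 3, at 10.38, 11.16 and 12.29. CAR in replicate 3 (9.88) lay below every Tak1/Rip3 array. A link between CAR and the Cyp2b10 values was not tested. Of the 20 listed receptors and partners 3 passed as higher and 1 as lower, at a median of 0.08. The coactivator Ppargc1a was higher by 0.81 ± 0.19 (limma adjusted p = 0.0288), the EGF receptor Egfr, through which phenobarbital acts on CAR, by 0.60 ± 0.12 (0.0187) and the factor Cebpa by 0.37 ± 0.10 (0.0468). The chaperone Hsp90aa1, of the kind that holds CAR in the cytoplasm, was lower, at -0.48 ± 0.12 (0.0406). The Cebpa call was lost on omission of any 1 of the 8 arrays (limma adjusted p = 0.0514 to 0.134), that of Hsp90aa1 on omission of any but replicate 2 of Tak1/Rip3 and replicate 4 of Tak1/Casp8 (0.0578 to 0.119), and that of Ppargc1a on omission of any but replicate 2 of both groups and replicate 4 of Tak1/Casp8 (0.0733 to 0.0891). Egfr no longer passed when replicate 2 of Tak1/Casp8, or replicate 1 or 4 of Tak1/Rip3, was omitted (limma adjusted p = 0.0529 to 0.063). With the brightest probe set per gene none of these 4 calls held (0.0511 to 0.394), and Hsp90aa1 also missed with arrays shifted to the same median (0.0679). With the mean over probe sets Ppargc1a (limma adjusted p = 0.0628) and Hsp90aa1 (0.0506) missed as well.

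Other genes that CAR or PXR ligands are known to raise moved in both directions. Of 29 measured outside the Cyp2b family, 3 were higher and 1 lower by the test, and 20 of the 29 differences were negative, with a median of -0.15. The lower gene was Cyp2c55, an arachidonic acid hydroxylase, with 10.95, 10.82, 10.98 and 10.66 in Tak1/Rip3 and 8.28, 8.47, 8.30 and 9.98 in Tak1/Casp8. The groups did not overlap, and replicate 4, not replicate 3, stood apart within Tak1/Casp8. The difference was -2.10 ± 0.33 (SE), with a limma adjusted p = 0.0052. The higher genes were the steroid hydroxylase Cyp3a13 (0.87 ± 0.14, limma adjusted p = 0.00668), the bile salt exporter Abcc3 (0.83 ± 0.15, 0.0088) and the uptake carrier Slco1a4 (0.87 ± 0.19, 0.0217). Slco1a4 no longer passed when replicate 1 or 2 of either group, or replicate 4 of Tak1/Rip3, was omitted (limma adjusted p = 0.051 to 0.0702), and with its brightest probe set (0.0921). Cyp3a11, the standard PXR target, differed by -0.04 ± 0.13. Cyp2c29, another gene that phenobarbital raises, differed by -0.39 ± 0.23 and did not pass.

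Genes known to be higher in female than in male liver, the class of Cyp2b9 and Cyp2b13, passed more often towards lower values. All 8 mice were male. Of 17 measured, 6 were lower in Tak1/Casp8 and 1 was higher, at a median of -0.36. The smallest adjusted p belonged to Prom1, a membrane protein also used as a progenitor cell marker, at -1.76 ± 0.10 (SE; limma adjusted p = 1.63e-05). Cyp4a14, a fatty acid hydroxylase, was lower by the most, with 11.79, 11.11, 12.19 and 12.18 in Tak1/Rip3 and 7.95, 8.79, 7.46 and 11.40 in Tak1/Casp8. Its groups overlapped through Tak1/Casp8 replicate 4, and its difference was -2.92 ± 0.70 (limma adjusted p = 0.0337), a call lost on omission of any array but replicate 2 of Tak1/Rip3 and replicate 4 of Tak1/Casp8 (0.0788 to 0.0931) and with the trended, robust variance model (0.0844). Without Tak1/Casp8 replicate 4 the difference was -3.75 (limma adjusted p = 0.000413). The others were the peroxisomal transporter Abcd2 (-1.18 ± 0.18), the plasma protein A1bg (-1.29 ± 0.26), Cyp3a44 (-1.09 ± 0.15) and Cyp3a16 (-2.18 ± 0.28), with limma adjusted p from 0.00193 to 0.0172. The brightest probe set ended the calls of Cyp3a44 (-0.16, limma adjusted p = 0.585), Cyp3a16 (-0.78, 0.103) and A1bg (-0.85, 0.103). Probe sets above the lower quartile gave -4.14 for Cyp3a16 and ended the A1bg call (-0.83, limma adjusted p = 0.0817). Cyp3a16 and Cyp3a44 have near-identical copies in their cluster and are uncertain. Without Tak1/Casp8 replicate 2 the A1bg call was lost (limma adjusted p = 0.0529). Cyp39a1, an oxysterol hydroxylase, was the 1 higher gene (0.49 ± 0.13, limma adjusted p = 0.0459), a call lost on omission of any array but Tak1/Casp8 replicate 2 (0.0665 to 0.126) and with its brightest probe set (0.26, 0.217).

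Of 23 measured genes known to be higher in male liver, 2 were higher and 1 lower in Tak1/Casp8, and their median was 0.02. Their mean level ranged from 8.96 to 10.08 over the Tak1/Casp8 arrays and from 9.27 to 9.64 over the Tak1/Rip3 arrays. The median thus does not show the spread within Tak1/Casp8. Cyp4a12a, which did not pass, read 7.81, 11.36, 7.95 and 12.34 there and 7.52 to 9.79 in Tak1/Rip3. Not all genes of the list spread so, as Mup20 read 13.58 to 13.70 in Tak1/Casp8. The pheromone protein Mup20, one of many near-identical urinary protein genes, was higher by 1.11 ± 0.16 (SE), with a limma adjusted p = 0.00379, and the complement gene C8a by 0.71 ± 0.11 (0.00477). Susd4, a complement inhibitor, was lower, at -1.87 ± 0.23 (0.00157), and by less on its brightest probe set (-0.86, limma adjusted p = 0.00653). In the growth hormone pathway 1 of 15 genes passed, the feedback inhibitor Socs3, higher by 0.62 ± 0.13 (limma adjusted p = 0.0167). Without Tak1/Rip3 replicate 4 that call was lost (0.0569), as with its brightest probe set (0.15, limma adjusted p = 0.54). The hormone receptor Ghr (0.33 ± 0.12, limma adjusted p = 0.16) and the transcription factor Stat5b (0.26 ± 0.11, 0.219) had groups that did not overlap but did not pass. Of the 12 electron donors and haem enzymes that Cyp2b enzymes depend on, 1 passed. This was Alad, an early enzyme of haem synthesis, with 12.96, 12.80, 12.85 and 12.81 in Tak1/Rip3 and 11.70, 11.98, 11.83 and 12.12 in Tak1/Casp8, a difference of -0.95 ± 0.11 (limma adjusted p = 0.00115). Por differed by -0.15 ± 0.15, and Alas1, the rate-limiting enzyme of haem synthesis, by -0.37 ± 0.27; neither passed, and both were lowest in Tak1/Casp8 replicate 3. Over all lists 21 of 120 genes passed, 10 higher and 11 lower, with a median of -0.03.

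**Figure D5:**
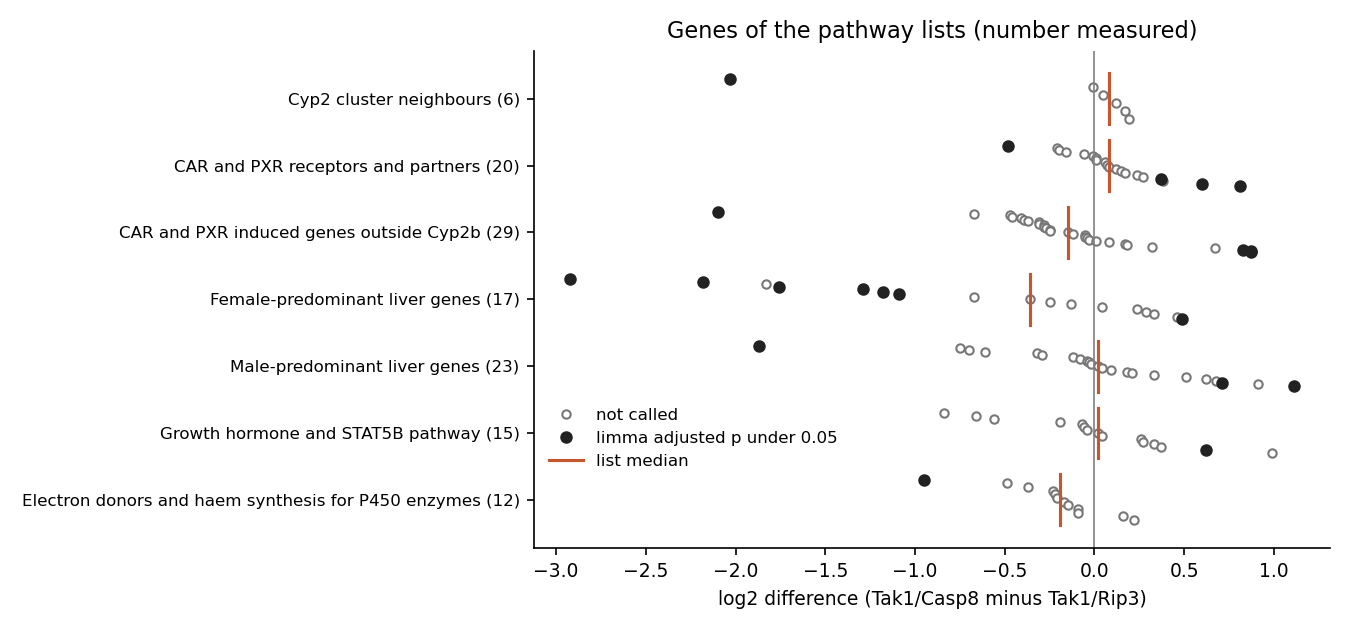
Log2 difference (Tak1/Casp8 minus Tak1/Rip3, x axis) of each measured gene in the lists of neighbours and pathway genes (y axis, number measured in brackets), 4 arrays per group. Filled points passed at an adjusted p under 0.05 in limma, open points did not, and orange bars mark list medians, of which that of the female-predominant genes is the lowest shown (-0.36).

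Markers of the hepatocyte, the cell that expresses Cyp2b genes in liver, did not pass. Of 9 hepatocyte markers 0 passed, and their mean level ranged from 13.37 to 13.49 over the Tak1/Casp8 arrays and from 13.27 to 13.47 over the Tak1/Rip3 arrays. Their differences were 4 positive and 5 negative, the largest in size those of Tat (0.50, limma adjusted p = 0.0652) and Pck1 (0.49, 0.076). Whether markers as bright as Alb (means 13.91 and 13.95) could show a change at that level was not tested. Of 7 stellate cell markers, 2 were lower (Lrat -0.59, Reln -0.65), and the mean level of the list was 9.42 to 10.10 against 10.12 to 10.42. The Reln call was lost without Tak1/Casp8 replicate 2 or any 1 of the Tak1/Rip3 arrays (limma adjusted p = 0.0561 to 0.0944). Of 7 lymphocyte markers, 2 were lower (Cd79a -1.38, Ms4a1 -1.11), with 5.97 to 6.14 against 6.41 to 6.57, though neither passed on its brightest probe set (-0.44 and -0.16). Of 9 Kupffer cell and monocyte markers 1 was higher (Cd163 1.98), with 9.11 to 9.58 against 9.02 to 9.21. Of 6 neutrophil markers 1 was higher (Cxcr2 0.87), with 6.21 to 6.66 against 5.98 to 6.30. Of 6 cholangiocyte markers 1 was higher (Spp1 0.97), while 4 of the 6 differences were negative at a median of -0.20, with 8.11 to 9.10 against 8.52 to 8.80. Epcam had the largest difference in size (-1.05, limma adjusted p = 0.0651); it did not pass, except without Tak1/Casp8 replicate 1 (-1.32, 0.0182), with dim genes left out (0.0463) or at a threshold of 0.10, and was -0.02 on its brightest probe set. Endothelial markers had 0 of 6. The part of these cells in the Cyp2b values was not tested.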

How the data were processed

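The values are log2 intensities per probe set on Affymetrix mouse arrays, 1 array for each of 8 livers, which the authors deposited after RMA normalisation (the method is named in the submitters' processing notes). Litters, hybridisation batches and the version of RMA are not in the labels. Of 223771 probe sets, 206316 have 1 gene symbol in the platform annotation, 3734 several and 13721 none; only the first kind was used, with 2571 symbols updated to RefSeq. The gene value is the median over probe sets (median 8 per gene). Group differences were fitted across all 19560 genes with lmFit and eBayes in limma 3.58.1 (R 4.3.3), and over all 206316 probe sets for the values of single probe sets, with Benjamini-Hochberg adjustment over all genes; the fit was tested on simulated data. The p-values set the group difference against the spread between mice, with the variance of each gene moderated over all genes by eBayes.

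The members, gene lists and tests were chosen with earlier results of these data known. Named were all members, up to 6 genes per list with the smallest adjusted p among those that passed, 7 set genes (Nr1i3, Nr1i2, Rxra, Hnf4a, Ghr, Stat5b, Por) and the 4 genes nearest to Cyp2b9 and to Cyp2b10, the members spanning more than 1 log2 unit. Cyp39a1, Alas1, Cyp3a11, Cyp2c29, Cyp2f2, Cyp2g1, Cyp4a12a, the cell type markers, Mfsd2a, Ppp1r2-ps3 and Sult1e1 were named after their values were seen. Promoters came from a RefSeq table (GRCm38.p6), aligned with Biopython 1.88. Other normalisations, probe set summaries, filters, variance models, thresholds and omission of each array were tried. Plots were made with matplotlib 3.10.9.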

Additional observations from a re-analysis of the deposited data

Results flagged for a closer look

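Of 162 groups of 4 arrays examined, 13 held an array far from the other 3, where chance gives about 1 in 20. Genes and their own probe sets were counted separately, so these groups are not independent and no excess over chance is read from the count. In Cyp2b10, Tak1/Casp8 replicate 3 had 6.55 while the other 3 had 8.61 to 8.83. The same array was far below the others on 4 probe sets of that gene. It read 6.55 on number 1 (others 8.46 to 8.65), 7.39 on number 3 (9.32 to 9.56), 6.64 on number 4 (8.97 to 9.32) and 4.82 on number 7 (6.97 to 7.11). On probe set 2 of Cyp2b23, Tak1/Casp8 replicate 1 read 9.99 against 7.28 to 7.50, and the same array was the highest of its group for Cyp2b9.

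Tak1/Casp8 replicate 4 was far from its group for 3 features. It had 4.98 for Cyp2b13 (others 4.27 to 4.38), 2.68 on the dim probe set 4 of Cyp2b19 (4.34 to 4.42) and 9.98 for Cyp2c55 (8.28 to 8.47). For Socs3, Tak1/Casp8 replicate 2 had 8.82 against 9.26 to 9.30. For Cd79a the same array had 4.70 against 5.20 to 5.23. For Alas1, Tak1/Rip3 replicate 2 had 12.65 against 12.01 to 12.11. For Ghr, Tak1/Rip3 replicate 1 had 10.73 against 11.06 to 11.08.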

How the results depend on the processing

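The count of members with groups that do not overlap was 2, and 3 with the brightest probe set per gene, with probe sets above the lower quartile and without Tak1/Rip3 replicate 3. Differences of Cyp2b9 and Cyp2b10 kept their sign under all 13 alternatives. Those of Cyp2b13 and Cyp2b23 (-0.16 and 0.09) depend on the probe sets used, at -1.28 and -2.66 with the brightest, -0.52 and -0.16 with the mean, and -1.28 and -0.14 above the lower quartile, so that Cyp2b23 turned sign under these 3. The count over all genes, 1308, became 759 with the brightest probe set, 115 with separate unmoderated variances, 406 at an adjusted p under 0.01 and 2130 under 0.10, and 706 to 1347 on omission of 1 array. The count over the lists, 21, became 12, 1 and 11 under the first 3 of these and 12 to 30 on omission of 1 array. The mean over probe sets gave 1804 over all genes and 30 over the lists. With separate variances Prom1 was the only call left among the pathway genes named, and Cd163 and Cd79a among the cell type markers. With the brightest probe set Cebpa, Egfr, Hsp90aa1, Ppargc1a, Slco1a4, Cyp3a16, Cyp3a44, Cyp39a1, A1bg, Socs3, Cd79a and Ms4a1 lost their calls. The mean over probe sets ended those of Ppargc1a and Hsp90aa1. The cause was not tested. No paired analysis was possible because the replicate numbers follow accession order and no label pairs the mice.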

Other observations

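For Cyp2b10, 2 genes had a larger gap between Tak1/Casp8 replicate 3 and the other 3 arrays of its group. Mfsd2a, a lipid transporter, had 11.83, 11.79, 9.60 and 11.72, and Ppp1r2-ps3, a pseudogene with a single probe set, had 8.66, 8.60, 5.96 and 8.46. Neither differed between groups by the test. For Cyp2b9, 1 gene had a larger gap between Tak1/Casp8 replicate 1 and the next array. This was Sult1e1, the oestrogen sulfotransferase and a gene of the female-predominant list, with 10.02, 5.67, 8.28 and 4.71, and 5.87 to 7.62 in Tak1/Rip3.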
